A study of Mus musculus with 12 samples.

Results

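The enzymes described here attach ubiquitin and its relatives to other proteins. They were taken by gene symbol, as every gene whose name begins with Ube2, Ube3 or Ube4 together with Uba1 to Uba7, with pseudogene names left out. Of the 11581 genes in the deposited table, 39 met this rule: 6 E1 activating enzymes, 27 E2 conjugating enzymes or E2 variants, 4 E3 ligases and 2 E4 enzymes. The rule reads gene symbols alone. GENCODE M21 names 48 protein-coding genes that fit the rule, and all 39 members are among them. The other 9 (Ube2c, Ube2d2b, Ube2dnl1, Ube2dnl2, Ube2e2, Ube2l6, Ube2ql1, Ube2u and Ube2v1) have no row and were not analysed here. One member, Ube2cbp, carries an E2-like symbol but is listed in RefSeq under the synonym Ube3d, and is treated here with the E3 ligases.

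RNA was sequenced from purified CD8 T cells of bone marrow chimeric mice whose OT-1 cells carried either wild-type Foxp3 or scurfy, an allele in which Foxp3 is inactivated. OT-1 cells bear a transgenic T cell receptor that recognises the SIINFEKL peptide of ovalbumin. The series has 12 samples in 4 groups, and the 6 unstimulated libraries are used here, 3 labelled Foxp3_Scurfy and 3 labelled Foxp3_WT. In both groups CD45.2+ C57BL/6 J animals had received a mixture of OT-1 marrow (Foxp3Scurfy or Foxp3wt, CD45.1+/2+) and CD45.2+ marrow, and cells were taken 2 months after reconstitution. The groups thus share the OT-1 receptor, the chimeric setting and the absence of peptide, and differ by label in the Foxp3 allele of the OT-1 donor. The labels name no marker by which OT-1 cells were parted from CD8 T cells of the other donor or of the host, and do not say whether a library holds 1 mouse or a pool. The p-values therefore rest on the spread between these libraries, part of which may be technical. In limma the spread of each gene was also drawn toward that of genes of similar level. The fit had 4 residual degrees of freedom and a median of 10.7 prior ones. A limma SE or p-value is thus not a measure of the spread of that gene alone.

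Reads summed over the table came to between 8852518 and 23149523 a library. All 6 of the CD8 T cell markers looked for had a row, with summed normalized counts of 51654 to 59574 in scurfy and 46549 to 47270 in wild type, and Cd3d rose while the other 5, Cd8a and Cd8b1 among them, did not pass the test described below. Cd4 and Zbtb7b, markers of CD4 T cells, had no row. Of 10 B cell markers 7 had a row, and their sums overlapped between groups (9895 to 11352 in scurfy, 10971 to 11753 in wild type), although H2-Aa fell, from 57.2 to 84.1 normalized counts in wild type to 0 to 15.7 in scurfy. H2-Ab1 (-3.48 on the log2 scale), H2-Eb1 (-2.34) and Cd74 (-0.99) did not pass, but were lower in every scurfy library. Cd79b did not pass either, and its groups overlapped (132 to 142 in scurfy, 132 to 218 in wild type). None of these genes exceeded 218 normalized counts in a library, so the sums rest mainly on the other B cell markers present, Ighm and Ighd. Of 6 myeloid markers only Cst3 had a row, and it rose (1406 to 1522.5 in scurfy, 821 to 1131 in wild type). Of 4 erythroid markers only Car2 had a row, and it fell (101 to 156 in scurfy, 232 to 315 in wild type). Of 4 natural killer markers only Eomes had a row, and it did not pass (76.8 to 99.3 in scurfy, 99.0 to 114 in wild type). The part of these markers in the results was not tested. Foxp3 has no row, so the genotype labels could not be set against its transcript. Scurfy library 3 lay farthest out on the first principal component. It was the lowest of the 6 libraries for 16 of the 39 enzymes, against 21.9% of all genes. In bulk RNA a smaller number of cells of one kind cannot be told apart from less RNA per cell.

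Ubiquitin is a small protein that is joined to lysines of its targets by a relay. An E1 enzyme activates it with ATP, an E2 carries it on a cysteine, and an E3 brings the loaded E2 to the target, while an E4 lengthens chains already begun. The relatives SUMO, NEDD8, ISG15 and UFM1 travel along parallel relays with enzymes of their own. In T cells ubiquitin chains send signalling proteins below the antigen receptor to the proteasome, alter their traffic or build platforms for NF-kB activation, and ligases such as Cbl-b and Itch are known brakes on activation.

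Most of the enzyme transcripts differed little between the genotypes, and those that differed were mainly lower in scurfy cells. In limma, with p-values adjusted over all 11581 genes and a threshold of 0.05, 4 of the 39 fell (Uba3, Ube2d1, Ube2d3 and Ube2q1), 1 rose (Uba1) and 34 did not pass, where 4.47% of all genes passed in either direction. The 4 are 10.3% of the members, where 2.35% of all genes were called lower, and the single rise is 2.56%, where 2.12% of all genes were called higher. Values of the 3 scurfy libraries all lay below those of the 3 wild-type libraries for 15 members (38.5%), against 13.7% of all genes. They all lay above them for 4 members (10.3%), against 13.4% of all genes. The log2 fold change, scurfy minus wild type, was negative for 27 of 39 members, and its median was -0.19, compared with 0.01 over all genes. An unadjusted p under 0.05 was reached by 16 members (41.0%), and by 21.2% of all genes. By the authors' deposited adjusted p, 7 of the 38 members with an adjusted p passed as lower and 2 as higher, where the authors' deposited table has 4.76% of genes lower and 4.15% higher. The additional calls of the authors' deposited table were Ube2b, Ube2g1 and Ube2w, all lower, and Ube2m, higher. In edgeR 4 members were lower and none higher, where 2.69% and 2.15% of all genes were.

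**Figure D1:**
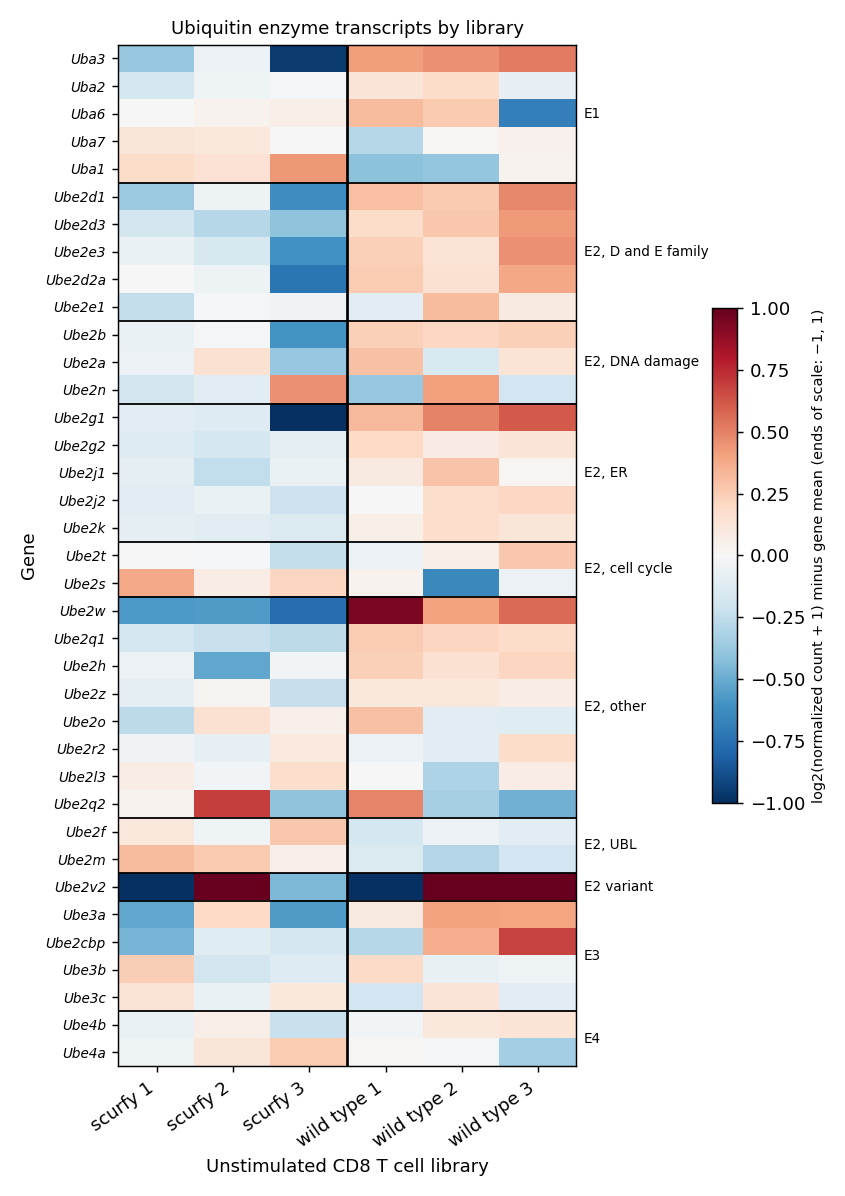
Deviation of 37 of the 39 enzyme transcripts in each library from that gene's mean over the 6 libraries, as log2(normalized count + 1), with genes in rows by class (ER, endoplasmic reticulum; UBL, ubiquitin-like protein) and libraries in columns; values past −1 or 1 take the end colour. Most E2 rows are bluer in the 3 scurfy columns, with scurfy library 3 often lowest, while Uba1, Ube2m and Ube2f are redder there.

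The E1 enzymes stand at the head of each relay, and the 2 calls among them went in opposite directions. Uba3 is the catalytic subunit of the E1 for NEDD8. Its normalized counts were 191, 239 and 128 in the scurfy libraries and 334, 342 and 357 in the wild-type libraries. No scurfy library reached the lowest wild-type one, and library 3 was lowest. The log2 fold change was -0.93 (SE 0.21, limma adjusted p = 0.0268), from 344 ± 11.7 to 186 ± 56.0 (SD, n = 3). The call ended without scurfy library 3 (-0.68, adjusted p = 0.0661) and without any 1 of the wild-type libraries (adjusted p from 0.0628 to 0.0877). Calls were lost over the whole table in fits with a library left out. There 113 to 403 genes passed, against 518 with no library left out.

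Uba1, the main E1 for ubiquitin, lies on chromosome X. It was at 1423, 1388 and 1688 normalized counts in scurfy and at 944, 958 and 1281 in wild type. The groups did not overlap, but wild-type library 3 came close to the scurfy libraries. Means were 1499.5 ± 164 and 1061 ± 191, with a log2 fold change of 0.51 (SE 0.14, limma adjusted p = 0.0478). The call held without wild-type library 3 (adjusted p = 0.0314) and ended with any other library left out (adjusted p from 0.0753 to 0.152). It also ended in edgeR (adjusted p = 0.0516) and with scaling by library total (0.37, adjusted p = 0.135). The other E1 genes did not pass. Among them Uba2, which with Sae1 activates SUMO, was at 860 ± 48.5 in scurfy and 961 ± 90.1 in wild type (-0.16). Uba7, the E1 for ISG15, had a log2 fold change of 0.15, and Uba6, a second E1 for ubiquitin, one of 0.07. Uba6 was even across scurfy libraries (203, 209 and 214) and uneven across wild type, where library 3 was at 127 and the others at 254 and 245.

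The Ube2d enzymes are the most broadly used E2s, working with a great many RING and HECT ligases, and the Ube2e enzymes are their closest relatives. All 5 members of this family were negative in sign (median log2 fold change -0.56, range -0.70 to -0.20), and 2 of them fell (2.35% of all genes fell) while 3 did not pass. For 4 of the 5 all scurfy libraries were below all wild-type libraries, as for 13.7% of all genes. Their active site is shown first, because the Ube2d genes resemble each other enough that the assignment of reads has to be considered. In 15 of the 27 E2 members a search of the coding sequence (GENCODE M21 transcripts, GRCm38) found codons for histidine, proline and asparagine followed, 30 bases after the first of their bases, by a cysteine codon. In the stretches of 57 bases below, read 5′ to 3′ along the transcript, capitals mark those 3 codons and the cysteine codon, which is codon 85 in Ube2d1 and Ube2d3, 88 in Ube2b, 90 in Ube2g1 and 111 in Ube2m. The stretch lies within exon 5 of the transcript of Ube2d1 (chr10:71258235-71258291, minus strand) and of Ube2d3 (chr3:135459990-135460046, plus strand). It runs across the junction of exons 4 and 5 in Ube2b (chromosome 11) and Ube2m (chromosome 7), and of exons 3 and 4 in Ube2g1 (chromosome 11).
Ube2d1: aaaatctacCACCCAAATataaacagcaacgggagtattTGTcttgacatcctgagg
Ube2d3: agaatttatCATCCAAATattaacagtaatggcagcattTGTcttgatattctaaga
Ube2b: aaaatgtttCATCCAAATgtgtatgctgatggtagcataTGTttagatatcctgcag
Ube2g1: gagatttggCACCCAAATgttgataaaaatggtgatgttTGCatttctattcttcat
Ube2m: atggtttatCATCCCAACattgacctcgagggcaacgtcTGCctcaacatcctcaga

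Ube2d1 and Ube2d3 share 44 of these 57 bases, and 77.3% of their coding sequence as a whole. Ube2d2a (chromosome 18) and Ube2d3 share 86.4% of 441 coding bases, and the longest exact run between their transcripts is 42 bases. Oligo-dT priming reads from the transcript end, so the last 1000 bases were searched, in the transcript with the longest coding sequence. None of the 951 stretches of 50 bases of Ube2d1, Ube2d2a or Ube2d3 occurred in a transcript of another gene. The Ube2d3 transcript is 2493 bases long, where the gene has 4674 exonic bases, and its other transcripts were not searched. Uba1 shared 31 of its 951 stretches (3.26%) with other genes, Uba3 9 (0.946%) with 1 pseudogene, and Ube2q1 0. Ube2d3 shares 198 exonic bases with an antisense transcript (4.24% of its exons), and Ube2d2a shares 309 with a transcript on its own strand (12.5%), so part of their reads could belong to those.

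Ube2d3 gave the smallest p of the 39 enzymes. It was at 1121, 1042 and 962 normalized counts in scurfy and at 1444, 1535 and 1706 in wild type. Every scurfy library lay well below every wild-type library. The fall from 1562 ± 133 to 1042 ± 79.5 corresponds to -0.58 on the log2 scale (SE 0.11, limma adjusted p = 0.0144). Leaving out wild-type library 3 ended the call (-0.52, adjusted p = 0.0640), and with any other library left out the adjusted p was at most 0.0486.

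Ube2d1 was at 349, 436 and 293 normalized counts in scurfy and at 557, 541 and 632 in wild type. Again the groups stood apart, with scurfy library 2 the highest of its group. The difference was -0.70 on the log2 scale (SE 0.16, limma adjusted p = 0.0274), from 577 ± 48.5 to 359 ± 71.8. It passed without scurfy library 2 (adjusted p = 0.0298), and with any other library left out it did not (adjusted p from 0.0613 to 0.105).

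Ube2d2a did not pass, at 730.2, 705 and 441 in scurfy and 872, 813 and 958 in wild type. Scurfy library 3 lay far below its group, and the groups did not overlap. Its log2 fold change was -0.53 (SE 0.17, limma adjusted p = 0.0941), and -0.29 without scurfy library 3. Ube2e3 was similar in size (-0.56, SE 0.19, adjusted p = 0.0999), with 237 ± 45.3 in scurfy and 346 ± 39.7 in wild type. Ube2e1, at 405 ± 32.7 and 466 ± 69.9, overlapped between the groups (-0.20, adjusted p = 0.495).

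**Figure D2:**
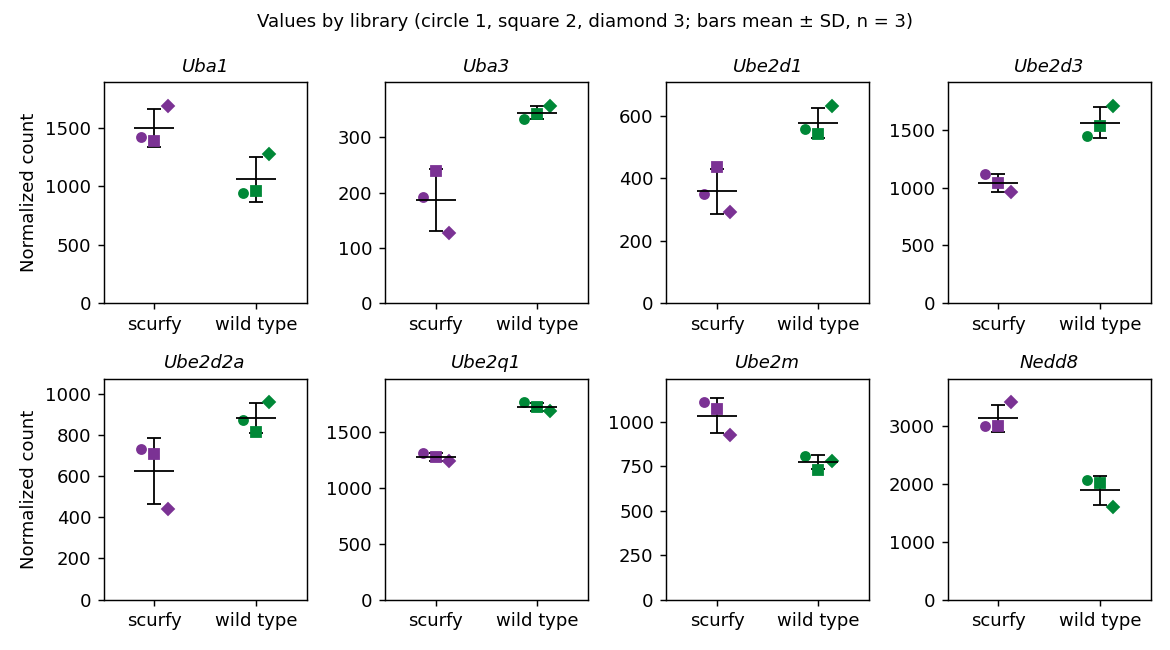
Normalized counts (vertical axes from 0) of 7 enzyme genes and Nedd8 in each unstimulated library, with mean and SD of 3 libraries per group. The groups are apart in all 8 panels; scurfy library 3 (diamond) is the lowest point for Uba3, Ube2d1, Ube2d3, Ube2d2a and Ube2q1, and wild-type library 3 comes nearest to the scurfy values for Uba1.

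Among the E2s of DNA damage tolerance, Ube2b and Ube2a are the mammalian counterparts of yeast Rad6, and Ube2n builds the non-degradative chains used in NF-kB signalling. None of the 3 passed. Ube2b was at 4133, 4291 and 2870.1 normalized counts in scurfy and at 5107, 5005 and 5103 in wild type, a log2 fold change of -0.45 (SE 0.13, limma adjusted p = 0.0695), and -0.27 without scurfy library 3. The wild-type libraries lay within a narrow band, and scurfy library 3 was far below its group. Ube2a, on chromosome X, overlapped between groups (-0.19, adjusted p = 0.489), as did Ube2n (0.10, adjusted p = 0.866). Ube2v2, the catalytically inactive partner of Ube2n, was sparse: it ranged from 4.84 to 34.2 in scurfy and from 2.66 to 34.8 in wild type, the lowest being under the 3.99 that 3 reads make in wild-type library 1.

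Ube2g1, Ube2g2, Ube2j1, Ube2j2 and Ube2k were grouped here by symbol as E2s of endoplasmic reticulum quality control. That route sends misfolded proteins to the proteasome, and the place of each member in it was not tested. None of the 5 passed in limma, yet in every one of them all scurfy libraries were below all wild-type libraries (13.7% of all genes), and the median log2 fold change was -0.26 (range -0.96 to -0.24). Ube2g1 was at 173, 171 and 80.4 normalized counts in scurfy and at 234, 264 and 285 in wild type. Here too scurfy library 3 was lowest, by a wide margin. The log2 fold change of -0.96 (SE 0.27, limma adjusted p = 0.0552) passed without scurfy library 1 (-1.14, adjusted p = 0.0430) and was -0.59 without scurfy library 3 (adjusted p = 0.122). In the authors' deposited table its adjusted p was 0.0159. The other 4 were more even across libraries and smaller in size. Ube2g2 was at 632 ± 16.4 in scurfy and 764 ± 32.8 in wild type (-0.27, adjusted p = 0.205), and Ube2k at 728 ± 13.6 and 860 ± 35.3 (-0.24, adjusted p = 0.2502). Ube2j2 and Ube2j1, which sit in the membrane itself, were at -0.26 each (adjusted p = 0.205 and 0.233). Ube2g2 shares 166 exonic bases (8.17%) with an overlapping gene model on its strand.

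Of the remaining 8 E2s for ubiquitin, Ube2q1 fell and 7 did not pass. Ube2q1 belongs to a branch of E2s with a long amino-terminal extension. It was at 1316, 1274 and 1239 normalized counts in scurfy and at 1767, 1722 and 1688 in wild type. Both groups were tight and far apart. The means were 1276 ± 38.7 and 1726 ± 39.5, and the log2 fold change was -0.43 (SE 0.10, limma adjusted p = 0.0278). With any 1 of the 6 libraries left out, scurfy or wild type, the adjusted p was between 0.0538 and 0.0909 and the call ended, although the log2 fold change moved little (-0.46 to -0.41).

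Ube2w, which marks the amino terminus of substrates rather than lysines, had the largest fold of the 39. It was at 23.0, 23.2 and 20.1 normalized counts in scurfy and at 67.8, 46.4 and 52.0 in wild type. Scurfy libraries lay close together at a low level, and all wild-type libraries were higher. Ube2w shares 253 exonic bases (7.75%) with a transcript on the opposite strand, so part of its reads could belong to that. On the log2 scale the difference was -1.27 (SE 0.37, limma adjusted p = 0.0627), and the authors' deposited table gives an adjusted p of 0.0338. Ube2h, an E2 of red cell maturation and of the CTLH ligase, was at 1400.1 ± 253 and 1829 ± 58.9 (-0.40, adjusted p = 0.0933), scurfy library 2 being lowest at 1108. Without that library it was at -0.24 (adjusted p = 0.324). Groups did not overlap for Ube2z either (-0.20, adjusted p = 0.391). They overlapped for Ube2l3, Ube2o, Ube2r2 and Ube2q2, whose log2 fold changes lay between -0.04 and 0.22. The cell cycle E2s did not pass: Ube2s, which extends chains for the anaphase-promoting complex, was higher in every scurfy library (38.1 ± 4.11 against 28.2 ± 6.92, 0.45, adjusted p = 0.541), and Ube2t, of the Fanconi pathway, overlapped (-0.18, adjusted p = 0.644).

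**Figure D3:**
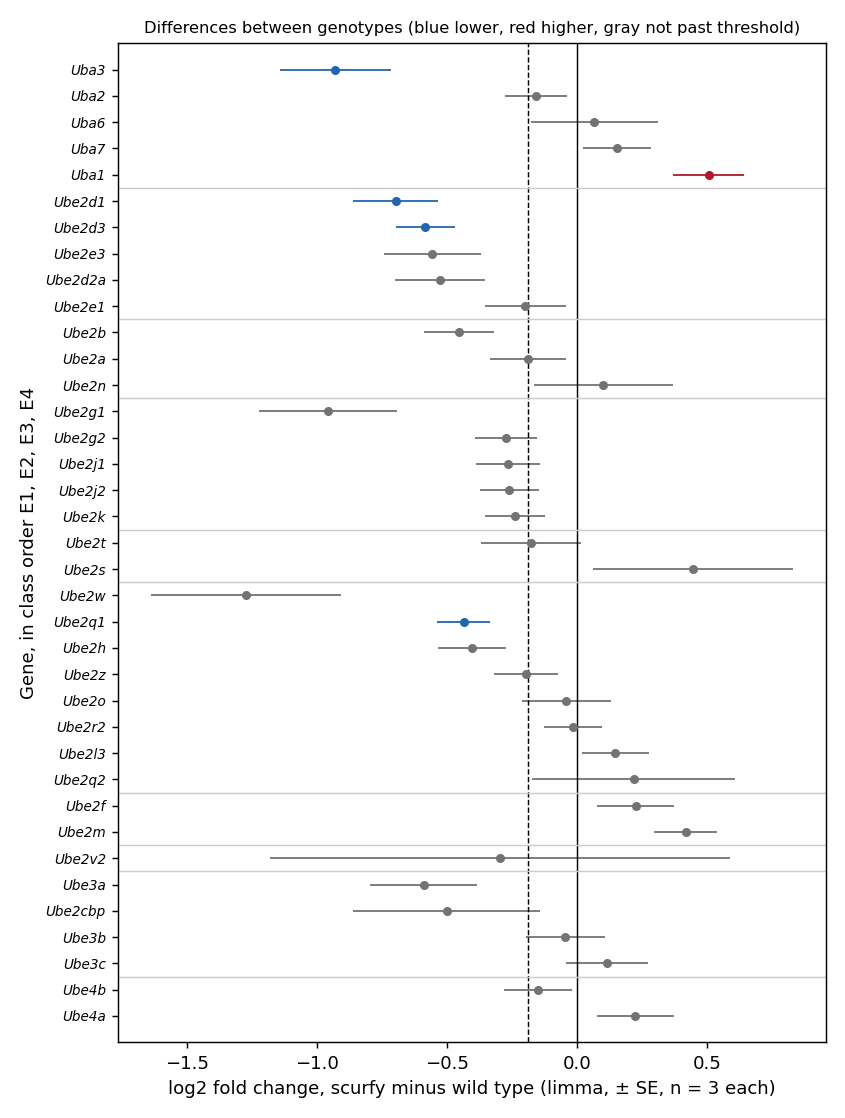
Log2 fold change of 37 of the 39 enzyme transcripts (horizontal axis, scurfy minus wild type, limma, bars ± SE, 3 libraries per group), with genes ordered by class and gray lines between classes; the solid line is 0 and the dashed line the median of -0.19 over all 39. All points of the D and E family and of the endoplasmic reticulum E2s lie left of 0, and Ube2m and Ube2f lie right of it.

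The E2s of the NEDD8 relay went the other way in sign. Ube2m and Ube2f hand NEDD8 to cullins, a step that switches cullin ligases on. Both were positive, and neither passed. Ube2m was at 1110.4, 1073 and 926 normalized counts in scurfy and at 807, 729.8 and 783 in wild type. Every scurfy library was above every wild-type library. This is a log2 fold change of 0.42 (SE 0.12, limma adjusted p = 0.0616), and the authors' deposited table has an adjusted p of 0.0262. Ube2f was at 427, 384 and 478 in scurfy and at 349.6, 379 and 368 in wild type, without overlap but with a small gap (0.23, adjusted p = 0.401).

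Nedd8, the protein that Uba3 activates and Ube2m and Ube2f carry, rose. It was at 2997, 2997 and 3404 normalized counts in scurfy and at 2059, 2007 and 1600.5 in wild type. The gap between groups was wide in relation to the spread within them. Nedd8 was 0.74 higher on the log2 scale (SE 0.12, limma adjusted p = 0.00551). Each of the 6 fits with a library removed kept the call, and the largest adjusted p among them was 0.0238. It is a short gene of 824 exonic bases, and short genes as a whole were higher in scurfy; with that trend removed the log2 fold change was 0.49 (adjusted p = 0.0351). Within the NEDD8 relay the E1 subunit Uba3 fell and its cargo Nedd8 rose, while Nae1, the subunit that pairs with Uba3, did not pass (0.22, adjusted p = 0.467).

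Ube3a is the founding member of the HECT family, in which the ligase takes ubiquitin onto a cysteine of its own, and Ube3b and Ube3c belong to that family. With Ube2cbp they make up the E3 members, and none of the 4 passed. Ube3a, best known from the brain, was at 217, 358 and 210.4 normalized counts in scurfy and at 331, 412 and 409.6 in wild type. Scurfy library 2 overlapped with wild type and the other scurfy libraries did not. The log2 fold change was -0.59 (SE 0.21, limma adjusted p = 0.114), and without scurfy library 2 it was -0.84 (adjusted p = 0.0450), and without scurfy library 3 -0.46 (adjusted p = 0.272). Ube3a overlaps Snhg14 on the opposite strand over 1803 exonic bases (16.5%), and reads of the pair cannot be separated if strand was not used. Ube2cbp was at 36.9 ± 4.75 and 54.3 ± 17.4 (-0.50, adjusted p = 0.453). Ube3b (-0.04) and Ube3c (0.12) were close to even. The E4 enzymes of the U-box type lay on either side of 0, Ube4a at 0.23 (540 ± 55.8 in scurfy, 463 ± 60.8 in wild type, adjusted p = 0.412) and Ube4b at -0.15 (adjusted p = 0.5497).

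The rest of the system was followed in a list of 74 partner genes, of which 70 had a row. Nedd8 rose, Herc3 fell and 68 did not pass, where 2.12% of all genes rose and 2.35% fell, and the median log2 fold change was -0.03. Groups did not overlap for 11 partner genes lower and 9 higher in scurfy, where 13.7% and 13.4% of all genes did not, so the partner list as a whole lay near the background. Herc3, a HECT ligase, was at 354, 511 and 385 normalized counts in scurfy and at 557, 703 and 714 in wild type (-0.67, SE 0.16, limma adjusted p = 0.0340). The groups were apart by a small margin at scurfy library 2. The call ended without scurfy library 1 or 3 or wild-type library 2 or 3 (adjusted p from 0.0824 to 0.120). Of the 21 HECT ligases Herc3 fell and 20 did not pass, the median was -0.23, and for 6 of them all scurfy libraries were below all wild-type libraries (13.7% of all genes). None of the 4 ubiquitin genes passed, and their median was 0.23. For 2 of the 4 all scurfy libraries were above all wild-type libraries (13.4% of all genes). Of the 7 ligases known for T cell regulation none passed, and the median was -0.01. Cbl (-0.37, limma adjusted p = 0.0743) and Cblb (-0.36, adjusted p = 0.130), named here after their values were seen, were lower in every scurfy library. They are the 2 of the 7 whose groups did not overlap (13.7% of all genes lower). Stub1 (0.30), Traf2 (0.24) and Traf6 (0.18) were positive in sign, and their groups overlapped. Among the 9 ubiquitin-like proteins Nedd8 was the single call, and the median was 0.05. For 4 of the 9, Nedd8 included, all scurfy libraries were above all wild-type libraries (13.4% of all genes).

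Length and scaling moved with the comparison, and their values are given beside the counts. The members have 1116 to 10947 exonic bases with a median of 3604, against 2952 over all genes. The difference between the median deviations of genes of up to 1000 bases and genes of over 4000 bases was 0.17 to 0.24 in scurfy libraries and -0.27 to -0.11 in wild-type libraries. No member is as short as 1000 bases. For the 16 members of 2000 to 4000 bases the median was -0.26 on the log2 scale, and for the 4136 genes of that length -0.01. For the 15 longer members it was -0.04, and for the 3840 longer genes -0.08. With a smooth length trend removed, the members' median was -0.16, 3 members passed as lower (1.33% of all genes) and Uba1 as higher (0.942%). Ube2q1 was the call that ended (-0.39, adjusted p = 0.0560). With scaling by library total in place of the deposited scaling, 761 genes fell (6.57%) and 168 rose (1.45%) where 272 and 246 had, and of the members 11 fell and none rose. The median over all genes was then -0.13 and that of the members -0.33. The part of length and scaling in these counts was not tested further.

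**Figure D4:**
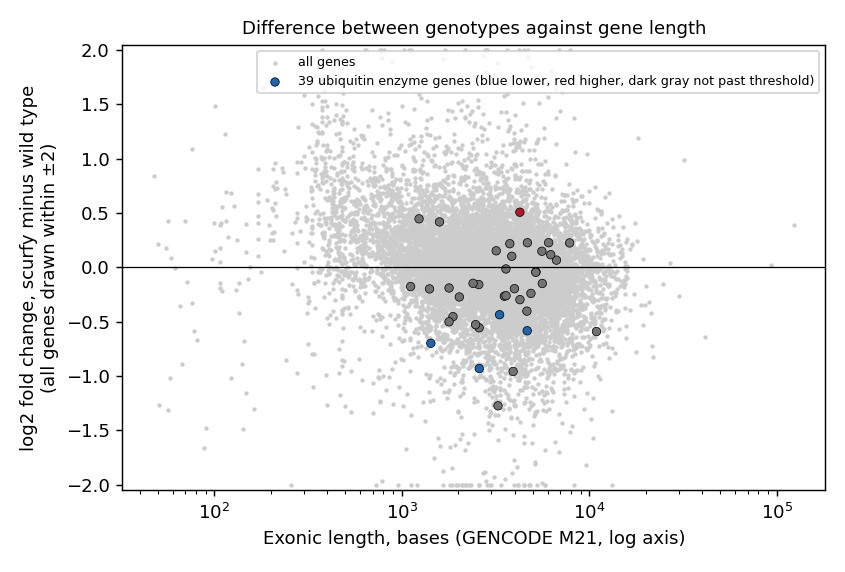
Log2 fold change, scurfy minus wild type (vertical axis, points past ±2 drawn at the edge), against exonic length in bases (log axis) for all genes in light gray and the 39 enzyme genes in larger points, blue where lower, red where higher, dark gray where not past the threshold. The shortest genes lie mostly above 0, and no enzyme gene is shorter than 1116 bases; the 4 blue points lie between 1431 and 4674 bases.

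The start regions of the 4 members that fell are shown because these genes moved in one direction. Sequences are from RefSeq promoter windows on GRCm38.p6, 250 bases up to the start of transcription, printed 5′ to 3′ along the gene. They are Uba3 (chr6:97205648-97205897, minus strand), Ube2d1 (chr10:71285263-71285512, minus strand), the most upstream of 4 starts of Ube2d3 (chr3:135437982-135438231, plus strand) and Ube2q1 (chr3:89773359-89773608, plus strand). Capitals mark matches, on either strand, to any of 6 motifs searched. For forkhead factors the letters were TGTTTAC. For Ets factors they were CCGGAAG. The GC box of Sp factors was searched as GGGCGG. The CCAAT box was taken by its name. A motif like that of YY1 was searched as GATGGCG. For part of the cyclic AMP response element the letters were TGACGTC.
Uba3: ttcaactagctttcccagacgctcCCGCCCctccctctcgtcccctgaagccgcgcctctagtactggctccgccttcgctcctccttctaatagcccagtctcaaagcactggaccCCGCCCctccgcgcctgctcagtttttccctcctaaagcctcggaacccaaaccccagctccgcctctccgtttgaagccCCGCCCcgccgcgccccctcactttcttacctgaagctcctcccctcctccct
Ube2d1: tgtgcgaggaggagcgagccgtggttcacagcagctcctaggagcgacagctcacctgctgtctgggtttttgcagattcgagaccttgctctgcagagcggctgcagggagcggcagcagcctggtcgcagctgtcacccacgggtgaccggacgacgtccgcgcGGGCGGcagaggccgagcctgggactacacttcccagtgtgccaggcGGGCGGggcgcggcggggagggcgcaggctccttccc
Ube2d3: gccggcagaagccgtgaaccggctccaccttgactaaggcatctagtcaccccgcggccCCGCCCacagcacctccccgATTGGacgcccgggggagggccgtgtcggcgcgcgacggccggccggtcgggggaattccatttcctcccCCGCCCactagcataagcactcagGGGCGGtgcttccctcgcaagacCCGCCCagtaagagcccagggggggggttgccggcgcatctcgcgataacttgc
Ube2q1: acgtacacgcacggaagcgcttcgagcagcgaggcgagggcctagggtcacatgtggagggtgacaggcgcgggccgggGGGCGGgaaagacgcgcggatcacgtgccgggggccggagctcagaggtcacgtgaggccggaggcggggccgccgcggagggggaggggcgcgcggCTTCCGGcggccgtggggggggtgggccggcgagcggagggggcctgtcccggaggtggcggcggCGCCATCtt

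All 4 hold at least 1 GC box within the window, and none holds the forkhead letters. Windows of 300 bases, which add the first 50 transcribed bases, were found for 30 of the 39 members and for 7915 genes of the table. A gene with several starts has several windows, and it was counted if any of them held the letters. The shares therefore also depend on how many starts a gene has. Ube2d3 counts for the Ets letters through a start other than the one printed. Uba6, Ube2d2a, Ube2e3, Ube2g2, Ube2o, Ube2v2 and Ube2w were among those not matched. The members' windows had a median GC content of 67.7% against 61.0%, and a median of 28.5 CpG dinucleotides against 21. The forkhead letters were in a window of 1 of 30 members, Ube2h (3.33%), and of 3.07% of genes. Ets letters were in 9 members (30%) and 23.0% of genes, GC boxes in 86.7% and 70.4%, and CCAAT in 26.7% and 43.1%. The letters from the cyclic AMP response element were in 10.0% and 7.00%. The YY1-like letters were in 8 of 30 members (26.7%), Uba1, Uba2, Ube2b, Ube2g1, Ube2l3, Ube2q1, Ube3a and Ube3c, and in 8.43% of genes. These members include genes that fell, rose and did not pass. In none of the 42 member windows did matches of different motifs overlap. A match is a run of letters and was not tested for binding.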

How the data were processed

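Per the labels' protocols, polyadenylated RNA was primed with indexed oligo-dT, amplified by in vitro transcription and sequenced on an Illumina instrument. Per the submitters' processing notes the tools were Trim Galore 0.4.4, STAR 2.6, featureCounts, edgeR and DESeq2, with build NCBIM37; their roles, and whether strand was used in counting, are not given in the sources used here. The table for stimulated cells holds the same values and column names as that for unstimulated cells and was not used, so the stimulated groups were not analysed here. The deposited values are a signal, read counts divided by one factor per library, and all nonzero values were whole multiples of 1 read within 0.01 read. Per the file headers, the authors also deposited a log2 fold change, its error, a test score and p-values.

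Here limma 3.58.1 (R 4.3.3) was run on log2(value + 1) over all 11581 genes and 6 libraries, with trended, robust moderation and Benjamini-Hochberg adjustment at 0.05. A mean ± SD is over 3 libraries. The script was tested on simulated data. Libraries of a group differed by 6.86 to 32.5 times sampling variance, so none was a duplicate. Lengths and overlaps come from the basic set of GENCODE M21 (11571 genes matched). Alternatives were edgeR 4.0.16, DESeq2 1.42.0 and voom on recovered reads, other scaling, pseudocounts, a filter, moderation without trend, length correction, a replicate block and each library left out. Named genes are members past the threshold, those without overlap at an unadjusted p under 0.05, the smallest p of each class, and partner genes past the threshold. Other members are given to account for the set, outside this rule. All 39 enter the counts, and 2 of them are not reported here one by one. Members and lists were chosen with earlier results of these data known. The limma fit was the main test because the deposited values are normalized.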

Additional observations from a re-analysis of the deposited data

How the results depend on the processing

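Each of the 5 called enzymes kept its direction under all alternatives run, and each lost its call under at least 1 of them. Against 4 enzymes lower and 1 higher, DESeq2 gave 7 and 2, and scaling by library total 11 and 0 (761 and 168 of all 11581 genes). DESeq2 on recovered reads and the authors' deposited test each had 476 genes lower and 415 higher of 10008, so they are not separate results. Limma without trend and robust moderation gave 0 and 0 (11 members, and 2106 genes, at an unadjusted p under 0.05, with 0 genes called in all). edgeR called 0 higher, and a filter at a mean of 50 called 2 higher. Leaving out 1 library gave 0 to 4 lower and 0 to 1 higher, 0 lower being without wild-type library 3. Over all genes 113 to 403 passed in these fits, against 518 with no library left out. Without wild-type library 3, 37 genes were lower and 76 higher, so calls were lost over the whole table and not in the members alone. Of the partner genes, where 1 fell and 1 rose, DESeq2 gave 6 and 2 and library total 8 and 2. The filter gave 2 lower, no trend 0 and 0, and length correction 0 lower. With 1 library left out 0 to 2 partner genes were lower and 1 to 2 higher. These counts moved with those of the whole table, where the filter gave 336 lower and 287 higher of 9188 genes. Length correction gave 154 and 109 of 11571. Ube2v2 reversed, ranging from -1.35 to 0.29 with 1 library left out. Uba6, Ube2n, Ube2o, Ube2q2, Ube2r2 and Ube3b, none of them called, also changed sign with a library left out. For every change given here whose setting does not itself drop genes or libraries, the cause was not tested. No label says that a replicate number marks a shared animal, litter or day, and whether it does was not tested. Deviations of same-numbered libraries correlated at 0.009, -0.040 and -0.070. With the number as a replicate block 372 genes passed, 3 members fell and 1 rose, Ube2q1 being lost. Depth limits Ube2v2, whose lowest library was under the 3.99 normalized counts that 3 reads make there.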
